A study of Mus musculus with 162 samples.

Results

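Stomachs of mice fasted for 18 h or 22 h, called late here, were compared with stomachs of mice fasted for 0 h or 2 h, called early, over all genes of the deposited count table. The 12 libraries, 6 late and 6 early, were picked by organ and fasting time from the sample labels, out of 18 stomach libraries and 162 libraries in all. The series profiled mRNA of 9 organs from 18 wild type mice of the strain C57BL/6J, all adult males, at 6 lengths of fasting with 3 mice each. Mice at 0 h ate freely, those of the other groups had lost access to food for 2 h, 18 h or 22 h, and no other treatment is labelled. Food was withdrawn at different times of day so that every group was killed at the same hour. Each mouse gave 1 stomach library, so that by their labels the 12 libraries stand for 12 mice. The labels do not say which regions of the organ were taken, and a library holds RNA of the whole homogenate.

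The stomach secretes acid from parietal cells, pepsinogens from chief cells and a mucus layer from surface and neck cells. The hormone gastrin, released by G cells of the antrum when food arrives, stimulates acid secretion and growth of the gland epithelium, and somatostatin restrains it. The mouse organ also has a forestomach lined by squamous epithelium, a thick smooth muscle wall and a nerve plexus.

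The markers of the organ were where the labels put them. Atp4a, the catalytic subunit of the proton pump (chr7:30712209-30725534 in GRCm38), lay between 1173 and 6170 CPM (counts scaled to a common library total) in the 12 stomach libraries and at no more than 40.2 CPM in the 96 libraries of the other organs at the same times. Pgc, which encodes pepsinogen C (chr17:47726842-47734482), lay between 70387.6 and 160189 CPM against at most 17.5 elsewhere. Gast, which encodes gastrin (chr11:100334407-100336996), lay between 2.18 and 342 CPM against at most 0.648 elsewhere.

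Total counts ran from 7568671 to 13769280 in the early libraries and from 6851903 to 9492977 in the late ones. At this depth 3 counts, taken as the floor of detection for counting error only, equal 0.211 to 0.449 CPM. All 6 early libraries were sequenced in lane 5 and all 6 late libraries in lane 6, so that lane and fasting state cannot be told apart. Genes of the mitochondrial chromosome took 2.83% to 9.57% of counts (median 6.40%) in early libraries and 11.0% to 24.4% (median 11.6%) in late ones, with no overlap. The highest late share was that of 22 h replicate 1. Library 0 h replicate 3 stood apart among the early libraries, highest in Hspa5, Clps and Sst and lowest in mitochondrial share and in the summed smooth muscle genes. Libraries 18 h replicate 1 and 18 h replicate 3, which are labelled as different animals, were alike: over 1133 abundant genes the median absolute log2 difference was 0.0810, against 0.135 to 0.865 in the other 65 pairs. Set against counting noise alone, the chi-square per gene was 4.77 in this pair and at least 14.5 in the others. The values do not tell whether they come from 1 animal, in which case the late group holds 5 mice. Counts of called genes, and of some lists, with both of them merged and without 0 h replicate 3 and 22 h replicate 1 are given in the next paragraph. The share of lane, mitochondrial RNA and these libraries in the differences below was not tested, beyond the values given.

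Gastrin mRNA fell to a small part of its early level in late stomachs. Of neck and gland mucous cell genes 3 of 4 fell too, as did 29 of 39 cell cycle genes. So did 21 of 26 genes of endoplasmic reticulum chaperones and stress. Markers of parietal, chief and surface mucous cells had negative median log2 fold changes, and 7 of 12, 2 of 6 and 3 of 12 fell. The abundant gland genes Pgc and Gkn1 did not pass. Of enteric nerve markers 7 of 13 rose, of glucocorticoid response genes 8 of 18, of clock genes 8 of 20 and of mitochondrial chromosome genes 10 of 12. Levels are given as normalized CPM, with library totals scaled by TMM factors, and each log2 fold change (log2FC) is late over early. Of 15974 genes tested with edgeR's quasi-likelihood (QL) test, 732 (4.58%) were called higher and 492 (3.08%) called lower, where the Benjamini-Hochberg (BH) adjusted p had to lie under 0.05 and the log2FC beyond 1 in either direction. At the same adjusted p with any fold, 1721 genes (10.8%) were higher and 1641 (10.3%) lower, the shares against which the counts of every list below stand, and the median log2FC of all genes was 0.01. Without 18 h replicate 3, 321 genes were called lower, and without 22 h replicate 2, 744. With 22 h as the only late time, 70 were called higher and 24 lower, against 969 and 921 with 18 h alone, and in no gene list did more than 2 genes pass in either direction at 22 h alone. Fcgbp, Prss32, Cela1, Pdx1, Hoxb8, Tff2, Hspa5, Dusp1, Mcm6 and Rrm1, described below, were among the genes that did not pass there. Gast, Gkn3, Cldn2, F5, Kcne3 and Klk1 did. The 18 h group holds the alike replicates 1 and 3, and a fit of 18 h alone with both merged was not made. With 0 h as the only early time 312 and 289 were called, and with 2 h 468 and 250. In a comparison of late with early over all 18 stomach libraries, 528 were called higher and 496 lower, and Klhl33, mt-Cytb, Ucp3, Scd1, Zg16, Krtdap and Sqle, described below, did not pass. With lane as a term over all 18 stomach libraries, where only those of 8 h separate lane from time, the QL test called 0 genes higher and 0 lower, with 541 at an unadjusted p under 0.05. The sign was then opposite in 10.8% of the 1224 genes called above, among them Dusp1, Ucp3, Des, Igkc and Krtdap. In refits chosen after seeing the data, 551 were higher and 356 lower with 18 h replicates 1 and 3 merged, and 815 and 578 without 0 h replicate 3 and 22 h replicate 1. With the merger 0 chief cell and 3 fatty acid synthesis genes fell, and 6 glucocorticoid response, 6 clock, 4 ribosomal protein, 7 mitochondrial and 0 forestomach genes rose. Without the other pair 8 forestomach, 6 PPAR target and 6 matrix genes rose, 0 chief cell and 0 adipocyte markers fell, and further lists with few passing genes moved under both refits.

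**Figure D1:**
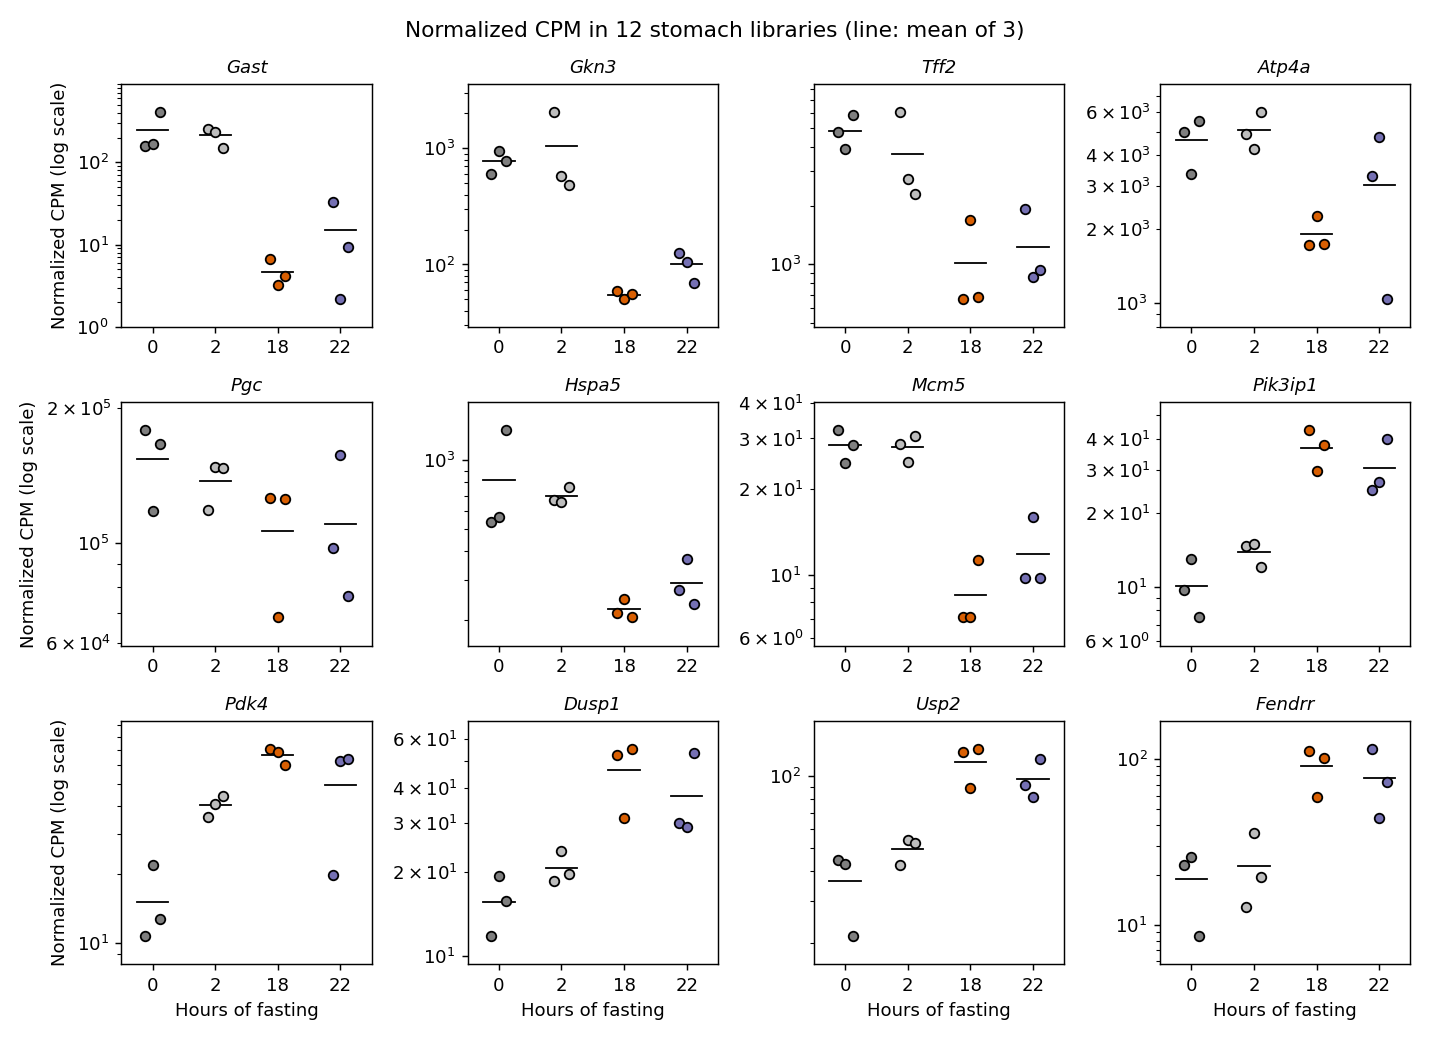
Normalized CPM (log scale) of 12 genes in each of the 12 stomach libraries by hours of fasting, with a line at the mean of 3 libraries. Gast, Gkn3, Hspa5 and Mcm5 do not overlap between 0 h and 2 h on the left and 18 h and 22 h on the right, nor do Pik3ip1, Dusp1, Usp2 and Fendrr, while Atp4a, Pgc and Pdk4 overlap.

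Among called genes with a mean of at least 5 normalized CPM and no overlap between the groups, the 10 with the deepest falls include genes of the antrum and of mucous cells. Gast had 150.4 to 412 (median 201) normalized CPM in the 6 early libraries and 2.19 to 33.01 (median 5.41) in the 6 late ones. The groups did not overlap, and the highest late library was 22 h replicate 1. Gast fell by 4.56 on the log2 scale (standard error, SE, 0.60, n = 6 and 6, adjusted p 0.000995, edgeR's QL test). It fell by 4.33 to 5.49 when any single library was left out. Gkn3, a gastrokine of gland mucous cells, had 486 to 2069 (median 689.8) normalized CPM in early and 50.6 to 126.2 (median 64.2) in late libraries. Every late library lay below every early library, and Gkn3 fell by 3.55 (adjusted p 0.000430). Pdx1, a transcription factor of antrum, duodenum and pancreas, had 6.33 to 14.1 (median 10.6) early and 0.115 to 4.81 (median 1.02) late, with no overlap, and fell by 2.65 (adjusted p 0.00390). Cldn2, a claudin that forms a cation pore in tight junctions, had 11.4 to 68.7 (median 26.3) early and 0.535 to 3.24 (median 1.52) late, again with no overlap, and fell by 4.24 (adjusted p 0.000558).

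Secreted proteins and a channel subunit made up the rest of these 10 genes. Fcgbp, a component of mucus that binds IgG, had 82.3 to 302 (median 153.6) normalized CPM early and 2.30 to 46.7 (median 16.5) late and fell by 3.01. Kcne3, a subunit of potassium channels in secretory epithelium, had 14.4 to 37.1 (median 29.1) and 2.06 to 10.7 (median 2.99) and fell by 2.67. The proteases Prss32, Cela1 and Klk1 fell by 2.89, 2.79 and 2.63. Coagulation factor V, F5, had 5.23 to 19.4 (median 9.92) early and 0 to 2.88 (median 1.29) late and fell by 2.87. Library 18 h replicate 2 had no count of F5, where 3 counts equal 0.401 CPM. The adjusted p of these 6 genes ran from 0.000522 for Klk1 to 0.00287 for Fcgbp in edgeR's QL test.

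The 10 largest rises picked in the same way were smaller than the falls and include noncoding transcripts and genes of muscle and connective tissue. One of them, mt-Nd6, is described with the mitochondrial genes. Hoxb8, a homeobox transcription factor that marks position along the body axis, had 1.60 to 2.20 (median 1.83) normalized CPM early and 3.24 to 18.9 (median 7.27) late and rose by 2.35 on the log2 scale (adjusted p 0.00233, edgeR's QL test). The long noncoding RNA Fendrr, transcribed beside the mesenchymal factor gene Foxf1, had 8.52 to 35.8 (median 21.1) early and 44.02 to 114.5 (median 86.8) late and rose by 2.001 (adjusted p 0.00211). Every late library lay above every early library for both genes. Carmn, a noncoding RNA of smooth muscle, rose by 2.06, and Adam33, a membrane protease of smooth muscle and fibroblasts, by 2.02. Adamtsl2, a secreted protein of the extracellular matrix, had 0.294 to 4.58 (median 2.46) normalized CPM early and 5.30 to 17.04 (median 9.66) late and rose by 1.96. The snoRNA host gene Snhg20, the antisense transcript Atcayos, the small GTPase gene Arl4d and the kelch family gene Klhl33 rose by 2.32, 2.07, 2.19 and 2.000. Klhl33 had no count in 0 h replicate 3, where 3 counts equal 0.449 CPM. Adjusted p of these 9 genes ran from 0.000430 to 0.00945 and none overlapped between the groups.

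The most abundant mRNAs were those of digestive enzymes and mitochondria. Pgc had 117693 to 178089 (median 147209) normalized CPM early and 68341 to 157063 (median 111288) late. The groups overlapped, 3 of the 6 late libraries lay below every early one, and the log2FC of -0.43 did not pass (adjusted p 0.401, edgeR's QL test). Clps, which encodes colipase, had 31857 to 74130.4 (median 39217) early and 18603 to 40721 (median 32648) late, and Pla2g1b, a secreted phospholipase, had 17182 to 31958 (median 21984) and 7226 to 21578 (median 16664). Neither passed, with log2FC of -0.46 and -0.56 (adjusted p 0.345 and 0.210).

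Markers of parietal, chief and surface mucous cells and of neck and gland mucous cells had negative medians, the last the lowest. This last list also holds antral genes, Gkn3 and Aqp5. Of 4 tested markers of neck and gland mucous cells, 3 fell and none rose, with a median log2FC of -2.19. The trefoil factor Tff2, which stabilizes mucus, had 2306 to 6086 (median 4342) normalized CPM early and 665 to 1914 (median 895) late. The groups did not overlap, and Tff2 fell by 1.93 (adjusted p 0.00254, edgeR's QL test). Aqp5, a water channel of antral glands, had 34.9 to 57.4 (median 46.2) early and 4.29 to 15.7 (median 8.21) late and fell by 2.46. The fourth marker, Muc6, had a log2FC of -1.04 and did not pass. The summed level of the list was 3928 to 10195 (median 6592) early and 1251 to 3082 (median 1633) late, without overlap. Antral genes, 6 in number and picked after their values were seen, include Gkn3 and Aqp5 of this list. Their sum was 718 to 2504 (median 1105) early and 70.3 to 199.9 (median 86.1) late, without overlap. It is not independent of this list, which shares these genes. In 2 h replicate 1, where the sum was highest, Gkn3 alone had 2069 of the 2504 normalized CPM. The part of stomach region in these falls was not tested. Fewer cells of a type and less RNA per cell cannot be told apart in these whole-organ libraries, here and for every cell type that follows.

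Among 12 parietal cell markers 7 fell and none rose (median log2FC -0.97). Atp4a had 3344 to 6030.2 (median 4938) normalized CPM early and 1040.4 to 4744 (median 2001) late. The groups overlapped through 22 h replicate 2, and 5 of 6 late libraries lay below every early one. Atp4a fell by 0.97 (SE 0.33, adjusted p 0.0445, edgeR's QL test). It missed the threshold without any 1 of 9 libraries and passed without 0 h replicate 2, 22 h replicate 1 or 22 h replicate 2, with log2FC between -1.28 and -0.81. Kcnq1, the potassium channel that recycles potassium for the pump, and the chloride transporter gene Slc26a7 fell by 1.10 and 1.02. The channel subunit Kcne2 fell by 1.40 (adjusted p 0.0290), a call that was lost without 18 h replicate 1 or 18 h replicate 3 (log2FC between -1.30 and -1.23). Over single libraries left out, 2 to 9 of the parietal markers fell, fewest without 18 h replicate 1 or 18 h replicate 3, 3 without 2 h replicate 3 or 22 h replicate 3 and 4 without 0 h replicate 1 or 2 h replicate 1, and 2 fell with 18 h replicates 1 and 3 merged. The summed level was 7742 to 12386 (median 10685) early and 3116 to 9905 (median 5202) late, with overlap.

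Of 6 chief cell markers 2 fell, the intrinsic factor gene Gif by 1.32 and the secretory cell transcription factor gene Bhlha15 by 0.97 (adjusted p 0.0428 and 0.0324, edgeR's QL test). All 6 had negative log2FC, with a median of -0.96. Gif had 1595 to 2649 (median 2057) normalized CPM early and 160.2 to 2292 (median 619) late, and 5 of 6 late libraries lay below every early one. The call of Gif held only without 0 h replicate 2, 18 h replicate 2 or 22 h replicate 2, and was lost without any 1 of the other 9 libraries (log2FC -1.37 to -1.23). That of Bhlha15 was lost without any 1 of 6 libraries, 0 h replicate 3, 2 h replicates 2 and 3, 18 h replicates 1 and 3, and 22 h replicate 3 (log2FC -0.995 to -0.83). Surface mucous cells had 12 markers, of which 3 fell, with a median of -0.91. Tspan8, a tetraspanin of mucous cells, had 344 to 689.7 (median 482) early and 59.5 to 248 (median 101.03) late and fell by 1.90 (adjusted p 0.00254). The gastric mucin gene Muc5ac fell by 1.33 (adjusted p 0.0410) and the adhesion molecule gene Vsig1 by 1.37 (adjusted p 0.0216). Muc5ac overlapped through 22 h replicate 1 and kept its call when that library was left out, and lost it without any 1 of the other 11 (log2FC -1.38 to -1.14). Gkn1, the most abundant marker of the list, had 7875 to 33786 (median 14749.5) early and 3421 to 16291 (median 5430.3) late, and its log2FC of -1.06 did not pass (adjusted p 0.114). Without 22 h replicate 1 it passed at -1.38, and 8 surface markers fell.

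Of 20 tested endocrine markers 7 fell and 2 rose (median log2FC -0.45), beside 10.3% lower and 10.8% higher among all genes. Tph1, the first enzyme of serotonin synthesis, had 3.38 to 12.95 (median 6.35) normalized CPM early and 0.631 to 1.56 (median 1.03) late, and Chgb, a granin of secretory granules, had 83.6 to 138.6 (median 89.4) and 14.6 to 56.4 (median 17.4). Neither overlapped, and they fell by 2.67 and 1.87 (adjusted p 0.000637 and 0.00278, edgeR's QL test). Sst, the somatostatin gene, had 216 to 507 (median 275) early and 99.5 to 225 (median 197) late and fell by 0.75 (adjusted p 0.0318), a call lost without 2 h replicate 3, 18 h replicate 2, 18 h replicate 3 or 22 h replicate 3 (log2FC -0.77 to -0.63). Cartpt, a neuropeptide gene shared by G cells and enteric neurons, had 6.46 to 14.2 (median 11.1) early and 13.8 to 38.7 (median 19.3) late, with 5 of 6 late libraries above every early one, and rose by 1.16. In the gastrin, histamine and somatostatin axis 4 of 13 genes fell (Gast, Sst, the cholecystokinin receptor gene Cckar and Reg1) and none rose, with a median of -0.49. Only 2 fell without 2 h replicate 1, 2 h replicate 3, 18 h replicate 2, 18 h replicate 3 or 22 h replicate 3. The receptor genes Cckbr and Hrh2, through which gastrin and histamine act on parietal cells, had log2FC of 0.07 and -0.09, and Hdc, which makes histamine, -0.49. When 1 library was left out, 1 to 4 endocrine markers rose, most without 22 h replicate 2 and 1 without 0 h replicate 1 or 2, 2 h replicate 1 or 3, 18 h replicate 1 or 3, or 22 h replicate 1. None of the 3 genes Cckbr, Hrh2 and Hdc passed (adjusted p 0.873, 0.812 and 0.227).

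Nerve and muscle genes of the wall had positive log2FC throughout both lists. Enteric neurons and glia had 13 tested markers, of which 7 rose and none fell (median log2FC 0.75). Prph, an intermediate filament of peripheral neurons, had 8.44 to 14.5 (median 10.2) normalized CPM early and 17.6 to 36.98 (median 28.1) late, and rose by 1.36 without overlap (adjusted p 0.00213, edgeR's QL test). Snap25, a protein of synaptic vesicle release, rose by 1.02 (adjusted p 0.0151). The summed level of the list was 89.3 to 133.9 (median 113.6) early and 163.6 to 238 (median 182.7) late, with no overlap, and its most abundant gene was the neuronal nitric oxide synthase gene Nos1. Fewer markers rose without 18 h replicate 1 or 18 h replicate 3, as few as 3, and 5 with the 2 merged. All 12 smooth muscle markers had positive log2FC, with a median of 0.62, and 3 rose. Smtn, a contractile protein, had 213 to 322 (median 276) early and 326 to 702 (median 607) late without overlap and rose by 0.99 (adjusted p 0.00438). The muscle intermediate filament gene Des rose by 1.04 (adjusted p 0.00629), and is active in skeletal muscle too, whose summed genes, given with the FoxO targets, were higher in all late libraries. The summed level was 7988 to 10466 (median 9866) early and 8239 to 23055 (median 16835) late, with overlap through 18 h replicate 2, without which the lowest late sum was 12499.6. Without that library 8 markers rose, and without 22 h replicate 1, 5.

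Levels of forestomach genes varied widely within both groups. Of 23 squamous epithelium markers 1 rose, Krtdap, which encodes a keratinocyte protein, and 1 fell, the keratin gene Krt16 with a log2FC of -2.20. The summed level was 4295 to 13466 (median 6249) normalized CPM early and 1599.9 to 18098 (median 14526) late, lowest of all in 22 h replicate 1. Without that library 9 markers rose, without 0 h replicate 2, 4, and without 22 h replicate 2, 2. The count of falls was 0 without any 1 of 7 libraries (0 h replicates 1 and 2, 2 h replicate 2, all of 18 h, and 22 h replicate 3), 3 without 0 h replicate 3 or 22 h replicate 2, and 4 without 2 h replicate 1. Krtdap had 356 to 703 (median 455) early and 247 to 1580 (median 1236) late and rose by 1.10 (adjusted p 0.0297, edgeR's QL test), a call lost without any 1 of 7 libraries (0 h replicate 1, 2 h replicates 1, 2 and 3, 18 h replicates 1 and 3, and 22 h replicate 3) and with limma-voom.

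Few markers of blood, vessel and connective tissue cells changed. Fibroblast markers numbered 8, of which 1 fell, the proteoglycan gene Lum (log2FC -0.72), and 0 without 18 h replicate 1. No marker passed among 6 of endothelium, 10 of macrophages and other myeloid cells, 4 of red blood cells and 2 of mesothelium, and the medians were -0.13, 0.30, 0.38 and -0.88. Of 3 markers of interstitial cells of Cajal, the pacemaker cells of the gut, the transcription factor gene Etv1 rose (log2FC 0.77), and of 7 mast cell markers the protease gene Mcpt2 fell (log2FC -1.45). The first count was 0 without any 1 of 7 libraries (all of 0 h, 2 h replicates 1 and 3, and 18 h replicates 1 and 3). The second was 0 without any 1 of 8 (0 h replicates 1 and 3, all of 2 h, 18 h replicates 1 and 2, and 22 h replicate 3) and 2 without 22 h replicate 2, where 1 endothelial marker fell as well. Genes of plasma cells fell, Igha, Igkc and Jchain by 3.47, 2.75 and 3.14 (adjusted p 0.0205, 0.0162 and 0.0210, edgeR's QL test), among 5 lymphocyte and plasma cell markers. Igha and Jchain, parts of secreted antibodies, were highest in 2 h replicate 1, and without it they had log2FC of -1.83 and -2.25 and did not pass. The call of Igha was also lost with DESeq2 and limma-voom, and that of Jchain with limma-voom. Interferon-stimulated genes rose in 2 of 18 cases, both antiviral genes of the Ifit family (Ifit1 and Ifit3, log2FC 1.48 and 0.78), beside 10.8% higher among all genes. That count was 0 without 2 h replicate 1 or 3, and 1 without 0 h replicate 2, 2 h replicate 2 or 18 h replicate 2, and no MHC class II gene of 6 passed (median 0.13). In the Reg and antimicrobial list 2 of 6 fell, Reg1 and the antibody transporter gene Pigr (log2FC -2.14), and 1 without 0 h replicate 2, 0 h replicate 3 or 2 h replicate 1. Reg1, a secreted lectin, lay between 0.493 and 61.8 early and between 0 and 0.650 late, and did not pass with limma-voom. Of collagens and matrix genes 3 of 18 rose, Col5a1, Col6a1 and elastin (Eln), and the crosslinking enzyme gene Lox fell (log2FC -1.29). Without 18 h replicate 2 or 22 h replicate 1, 5 of them rose.

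Markers of pancreas and intestine, where they changed, were lower in late libraries. Of 11 pancreatic acinar markers 4 fell (Cela1, Cela2a, Amy2a5 and Zg16) and all had negative log2FC, with a median of -2.35. Zg16, a lectin of secretory granules, had 24.3 to 140.1 (median 57.9) normalized CPM early and 1.04 to 23.7 (median 12.9) late, without overlap, and fell by 2.35 (adjusted p 0.00949, edgeR's QL test). The summed level of the list, most of it Clps, was 32131 to 75064 (median 39525) early and 18673 to 40809 (median 32728) late. Intestinal enterocytes gave 7 markers, of which 3 fell (Fabp2, Apoa4 and Alpi, median -1.24), with a summed level of 162 to 463 (median 259) and 82.3 to 226 (median 99.4). Fabp2, which binds fatty acids in the gut epithelium, fell by 2.57 (adjusted p 0.0112), with 5 of 6 late libraries below every early one. Of 6 hepatocyte markers 1 fell, transthyretin (Ttr, log2FC -1.05), and of 5 adipocyte markers 2, adiponectin (Adipoq) and perilipin (Plin1), with log2FC of -2.70 and -2.51. Only 1 adipocyte marker fell without any 1 of 9 libraries, and 2 did without 0 h replicate 2, 2 h replicate 2 or 22 h replicate 3. The part of these cells in the gland genes above was not tested.

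**Figure D2:**
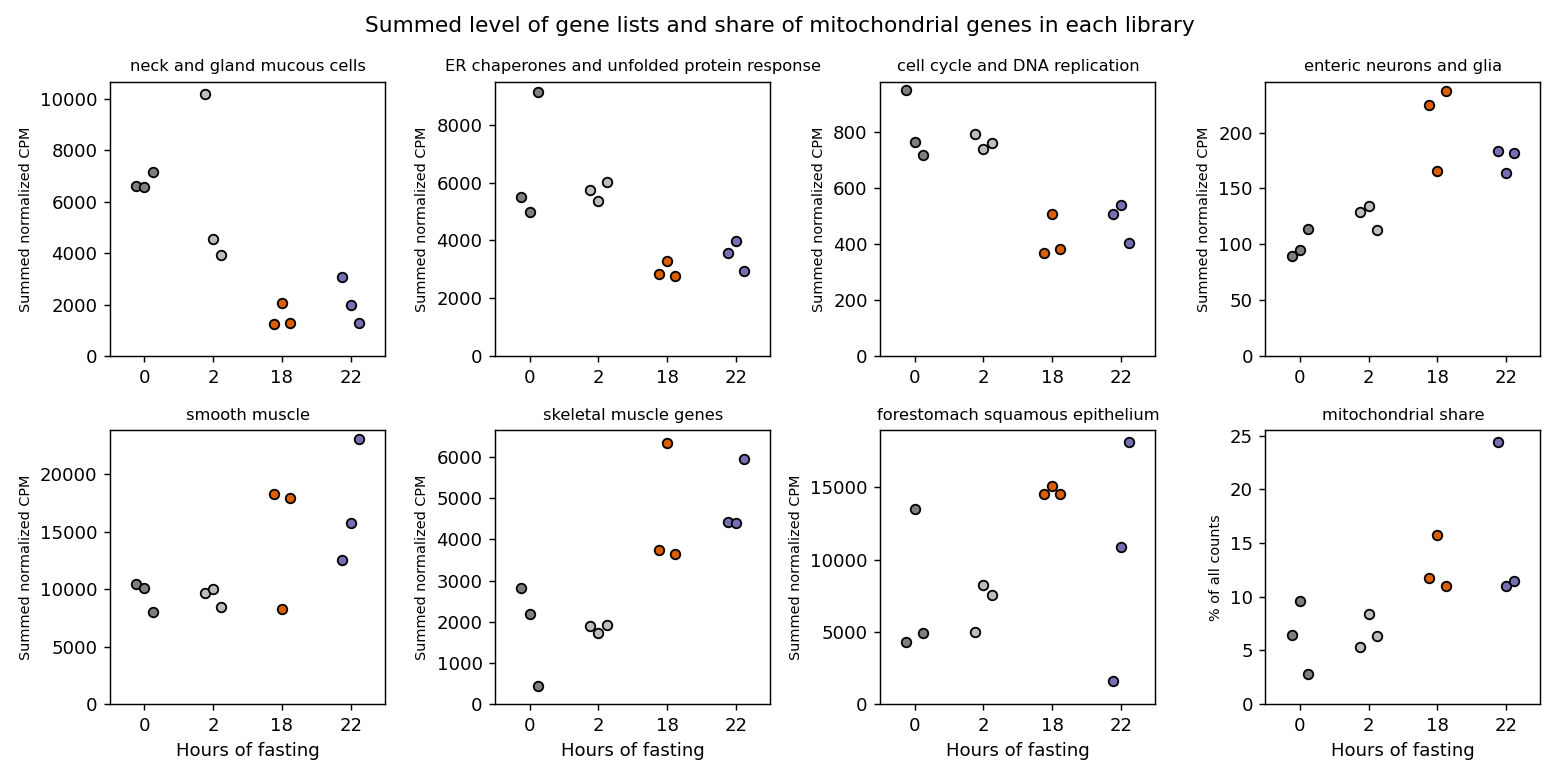
Summed normalized CPM of 7 gene lists, and the share of all counts from mitochondrial genes, in each of the 12 stomach libraries by hours of fasting. Neck and gland mucous, endoplasmic reticulum and cell cycle sums lie lower at 18 h and 22 h than at 0 h and 2 h. The nerve and skeletal muscle sums and the mitochondrial share lie higher, and smooth muscle and forestomach overlap. The skeletal muscle genes were chosen after their values were seen.

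Chaperones and folding enzymes of the endoplasmic reticulum (ER) fell together. Of 26 genes of the ER chaperone and unfolded protein response list 21 fell and 1 rose, with a median log2FC of -0.85 against 0.01 over all genes. Hspa5, the main ER chaperone BiP, had 536 to 1349 (median 663) normalized CPM early and 206 to 369 (median 242) late. The groups did not overlap, and Hspa5 fell by 1.55 (SE 0.24, adjusted p 0.00157, edgeR's QL test). The disulfide isomerase gene Pdia4 had 76.8 to 137.1 (median 91.6) early and 37.7 to 50.7 (median 42.8) late, and Pdia6 had 176 to 324 (median 221) and 77.6 to 125.3 (median 93.7). They fell by 1.19 and 1.23 without overlap (adjusted p 0.000637 and 0.00116). P4hb, the most abundant member and also a disulfide isomerase, fell by 0.78. The gene that rose was Ddit3, which encodes the stress transcription factor CHOP, with 12.4 to 23.8 (median 15.001) early and 16.8 to 36.9 (median 29.8) late, by 0.83 (adjusted p 0.0112). The summed level was 4995 to 9145 (median 5623) early and 2761 to 3989 (median 3114) late, without overlap. With any single library left out 18 to 23 genes of the list fell, against 1 with 22 h as the only late time and 20 with 18 h alone.

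The ER stress response element, the letters CCAAT, any 9 bases and then CCACG, on either strand, was searched in RefSeq promoters (GRCm38.p6, 250 bases before to 50 after the gene start). Of the 23 list genes with a promoter there, 8 held it (34.8%): Hspa5, Hsp90b1, Pdia6, Calr, Canx, Dnajc3, Creld2 and Derl3. Among the 11306 tested genes with a promoter 18 did (0.159%). All 8 fell, as did 11 of the 15 list genes without the letters. Outside the list 10 tested genes held them, of which 1 fell and 1 rose. A match describes these letters only. The windows of the 5 genes whose first match lies within 150 bases before the gene start are shown, read along the strand of the gene. They lie at chr2:34771940-34772089 (Hspa5), chr12:17266439-17266588 (Pdia6), chr11:50325674-50325823 (Canx), chr14:118937782-118937931 (Dnajc3) and chr15:88819496-88819645 (Creld2), on the minus strand for Canx and the plus strand for the others. Capitals mark the element, which is reversed in Creld2.
Hspa5: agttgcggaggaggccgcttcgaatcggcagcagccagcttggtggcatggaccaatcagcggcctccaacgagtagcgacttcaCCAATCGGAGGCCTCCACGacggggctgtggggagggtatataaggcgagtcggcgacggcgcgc
Pdia6: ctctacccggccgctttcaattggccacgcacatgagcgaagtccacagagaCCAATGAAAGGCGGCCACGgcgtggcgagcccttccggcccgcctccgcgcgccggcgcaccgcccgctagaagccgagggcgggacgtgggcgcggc
Canx: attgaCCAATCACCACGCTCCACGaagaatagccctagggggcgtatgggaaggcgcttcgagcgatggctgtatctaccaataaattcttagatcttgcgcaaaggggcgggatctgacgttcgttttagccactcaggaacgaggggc
Dnajc3: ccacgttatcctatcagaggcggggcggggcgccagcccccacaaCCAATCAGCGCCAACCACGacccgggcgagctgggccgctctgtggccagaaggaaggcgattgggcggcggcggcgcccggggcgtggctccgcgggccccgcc
Creld2: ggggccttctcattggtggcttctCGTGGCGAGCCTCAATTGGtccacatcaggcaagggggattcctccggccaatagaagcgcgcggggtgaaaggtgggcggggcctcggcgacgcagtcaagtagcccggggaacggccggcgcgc

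Genes of DNA replication and mitosis fell as a group. Of 39 genes of the cell cycle list 29 fell and none rose, with a median log2FC of -1.04 against 0.01 over all genes. Mcm5, a subunit of the replicative helicase, had 24.7 to 32.0 (median 28.7) normalized CPM early and 7.07 to 15.9 (median 9.73) late, and Mcm6 of the same complex had 42.1 to 55.8 (median 52.5) and 19.1 to 31.4 (median 24.6). Rrm1, the large subunit of ribonucleotide reductase, had 35.8 to 49.3 (median 41.7) early and 15.6 to 29.04 (median 19.4) late. None of the 3 overlapped, and they fell by 1.47, 1.03 and 1.04 (adjusted p 0.000641, 0.00116 and 0.00141, edgeR's QL test). The mitotic kinase gene Bub1 and the cyclin gene Ccnb1 had log2FC of -1.56 and -1.61 and passed, and the proliferation marker Mki67 had a log2FC of -0.58 that did not pass. Summed over the list the level was 718 to 947 (median 761) early and 367 to 537 (median 455) late, without overlap. Between 25 and 32 genes fell when any single library was left out, 28 with 18 h as the only late time and 2 with 22 h alone. The E2F letters TTTCGCGC, on either strand, stood in the promoters of 4 of 31 list genes (Cdk1, Mcm5, Mcm6 and Mcm7) and of 0.663% of the 11306 tested genes with a promoter, and 3 of the 4 fell, beside 19 of the 27 without them. The letters TTTGGCGC stood in 4 (Cdt1, Mcm3, Mcm5 and Mcm6) and in 1.01% of tested genes, and all 4 fell, beside 18 of 27.

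**Figure D3:**
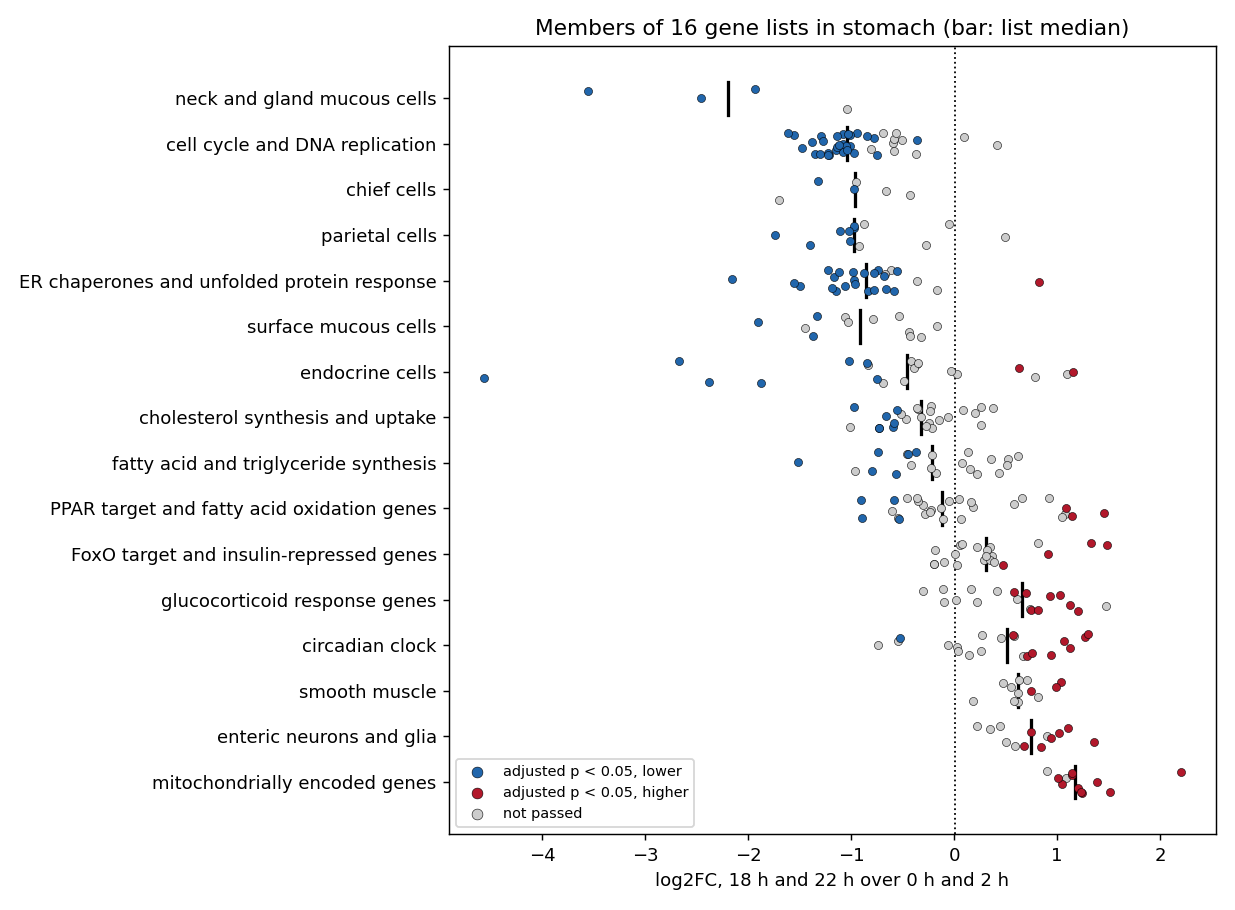
Log2FC (late over early) of each tested member of 16 gene lists, with a bar at the list median and a dotted line at the median of all genes, 0.01. Blue points fell and red points rose at an adjusted p under 0.05 (edgeR's QL test), and grey points did not pass.

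Among genes induced by glucocorticoids and genes of the circadian clock, fewer passed than did not, and those that passed were mostly higher. Of 18 glucocorticoid response genes 8 rose and none fell (median log2FC 0.66), and their summed level was 1173 to 1423 (median 1307) normalized CPM early and 1635 to 2346 (median 1892) late, without overlap. Dusp1, a phosphatase that switches off MAP kinases, had 11.8 to 23.8 (median 18.9) early and 28.9 to 55.3 (median 41.9) late and rose by 1.20 without overlap (adjusted p 0.00254, edgeR's QL test). Nfkbia, the inhibitor of NF-kappaB, rose by 0.75, Tsc22d3, which encodes the leucine zipper protein GILZ, by 0.70, and the metallothionein gene Mt1, the most abundant member, by 0.93. Fkbp5, which encodes a chaperone of the receptor, had 38.1 to 113.9 (median 71.7) early and 55.4 to 114.5 (median 94.4) late and did not pass (log2FC 0.23, adjusted p 0.566). Without 18 h replicate 1, 5 genes rose.

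Of 20 clock genes 8 rose and 1 fell (median log2FC 0.51). Usp2, a deubiquitinase gene under clock control, had 21.4 to 53.99 (median 43.8) normalized CPM early and 82.05 to 129.8 (median 104.8) late. The transcription factor genes Tef, the most abundant member, and Dbp, which are driven by the clock, had 96.8 to 190.04 (median 166.3) and 33.5 to 126.5 (median 87.8) early and 225 to 345 (median 254) and 129.8 to 202 (median 160.9) late. None of the 3 overlapped, and they rose by 1.30, 0.75 and 0.94 (adjusted p 0.00161, 0.00974 and 0.0127, edgeR's QL test). All 3 were lowest in 0 h replicate 3, where the summed level of the list was 495, against 858 to 1044 in the other early libraries. The call of Dbp was lost when GC and length trends were removed, a choice made after seeing the data. The repressor gene Bhlhe40 fell by 0.52. Arntl and Clock, the core activators, had log2FC of -0.74 and 0.03 and did not pass (adjusted p 0.107 and 0.935). Without 18 h replicate 2, 2 clock genes fell, and without 18 h replicate 1, 5 rose. Of immediate early genes 7 of 24 were higher, among them Ier3 by 0.80, and 3 lower (Fos, Klf4 and Dusp6, log2FC -1.12, -0.73 and -0.60), beside 10.8% and 10.3% of all genes. Without 0 h replicate 1, 4 immediate early genes rose, and 1 fell without 0 h replicate 2, 2 h replicate 1, 18 h replicate 1, 18 h replicate 3 or 22 h replicate 3.

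Most targets of FoxO factors, which insulin holds back, did not pass. Of 21 listed genes 4 rose (Pik3ip1, Fbxo32, Sesn1 and the mitophagy kinase gene Pink1) and none fell, beside 10.8% higher among all genes, with a median log2FC of 0.31. Pik3ip1, an inhibitor of PI3 kinase, had 7.48 to 14.9 (median 12.5) normalized CPM early and 24.8 to 43.4 (median 33.6) late and rose by 1.48 without overlap (adjusted p 0.000641, edgeR's QL test). Fbxo32, a ubiquitin ligase of muscle wasting, had 26.2 to 113.4 (median 91.5) and 103.2 to 258 (median 217), and 5 of 6 late libraries lay above every early one. It rose by 1.33 (adjusted p 0.0125), and Sesn1, a stress sensor that restrains mTORC1, by 0.91 (adjusted p 0.00866). Txnip, the most abundant member and a brake on glucose uptake, had 307 to 401 (median 356) early and 362 to 593 (median 442) late and did not pass (log2FC 0.38, adjusted p 0.109). Fbxo32 is also active in skeletal muscle, as are Des above and Ucp3 and Slc2a4 below. The summed level of 9 skeletal muscle genes, picked after their values were seen, was 449 to 2831 (median 1904) early and 3654 to 6353 (median 4411) late, without overlap, and the part of this tissue in the 4 rises was not tested.

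Genes of fat oxidation passed in both directions, at shares near those of all genes (10.8% higher and 10.3% lower). Of 28 PPAR target and fatty acid oxidation genes 3 rose and 4 fell, and the median log2FC was -0.12. The uncoupling protein gene Ucp3 had 0.641 to 2.39 (median 1.73) normalized CPM early and 2.72 to 6.09 (median 4.03) late and rose by 1.46 (adjusted p 0.00723, edgeR's QL test), and the thiolase gene Acaa1b rose too (log2FC 1.08, adjusted p 0.0479). Pdk4, which shuts pyruvate out of oxidation, had 10.7 to 44.1 (median 28.8) and 19.9 to 70.8 (median 63.6) with a log2FC of 1.05 and missed the threshold (adjusted p 0.0511). It passed without 2 h replicate 2, 2 h replicate 3 or 22 h replicate 1 (log2FC 1.19 to 1.23), and with DESeq2 or limma-voom over all 12. Without 22 h replicate 1, 6 genes of the list rose. The genes that fell were Ehhadh, a peroxisomal oxidation enzyme, by 0.90 (adjusted p 0.00968), the fatty acid transporter gene Cd36 and the dehydrogenase genes Acadm and Acadl, with log2FC of -0.90, -0.58 and -0.53.

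Lipid synthesis genes fell or did not pass. In fatty acid and triglyceride synthesis 6 of 21 genes fell and none rose (median log2FC -0.21). Fasn, the fatty acid synthase, had 191.2 to 291 (median 233.7) normalized CPM early and 108 to 173 (median 145.6) late and fell by 0.74 without overlap (adjusted p 0.00686, edgeR's QL test). The desaturase genes Scd1 and Scd2 fell by 1.51 and 0.80. Only 3 genes of the list fell when 0 h replicate 1 or 2, 2 h replicate 1 or 3, or 18 h replicate 1 or 3 was left out. In cholesterol synthesis and uptake 7 of 25 fell and none rose (median -0.32), as few as 4 without 18 h replicate 3. Insig1, the sterol sensor's partner, had 56.3 to 95.3 (median 74.3) early and 24.7 to 48.3 (median 37.97) late and fell by 0.98 (adjusted p 0.00323), without overlap. The sterol carrier gene Stard4 and the epoxidase gene Sqle fell by 0.73 and 0.66.

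Genes of glucose metabolism passed in both directions. In glycolysis and glucose transport 3 of 21 rose and 1 fell (median log2FC -0.25), beside 10.8% higher and 10.3% lower among all genes. The insulin-responsive transporter gene Slc2a4 had 63.7 to 96.2 (median 78.6) normalized CPM early and 104.1 to 175 (median 133.4) late and rose by 0.76 without overlap (adjusted p 0.00345, edgeR's QL test). The transporter gene Slc2a3 and Gapdh were the others that rose, and Gapdh, which has many near-identical copies, is undercounted by unique mapping. The kinase gene Pgk1 fell (log2FC -0.84), and 5 genes fell without 2 h replicate 2, 3 without 22 h replicate 2, and 2 without 0 h replicate 3 or 22 h replicate 1. Of 8 genes of gluconeogenesis and ketone bodies 3 fell and 1 rose (median -0.68). Pcx, which makes oxaloacetate from pyruvate, had 118.3 to 189.9 (median 145.8) early and 56.3 to 108.6 (median 65.1) late and fell by 0.98 without overlap (adjusted p 0.00287), with Oxct1 and Acat1 of ketone body use (log2FC -0.72 and -0.95). Pck2, the mitochondrial carboxykinase gene, rose by 0.64 (adjusted p 0.0156).

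Most genes of the amino acid, translation and recycling lists did not pass. In the ATF4 and amino acid response 3 of 25 rose and 3 fell (median log2FC 0.11). Asns, the asparagine synthetase, had 168.002 to 205 (median 181) normalized CPM early and 65.9 to 139.7 (median 85.8) late and fell by 1.02, while the transcription factor gene Atf5 had 32.8 to 42.02 (median 37.1) and 53.5 to 87.9 (median 70.1) and rose by 0.91 (adjusted p 0.00213 and 0.00185, edgeR's QL test). Neither overlapped. Without 18 h replicate 3, 1 gene of this list rose, and without 18 h replicate 2, 5 fell. Of 28 cytosolic ribosomal protein genes 7 rose and none fell (median 0.33), and these genes too have copies that unique mapping leaves out. Only 3 rose without 2 h replicate 1, 2 h replicate 3 or 18 h replicate 1, and 4 without 18 h replicate 3. In ribosome biogenesis 1 of 24 rose and 3 fell (median -0.02), in autophagy and lysosome 1 and 2 of 23 (median 0.01). Heat shock and cold-inducible genes had 3 of 16 higher, the small chaperone genes Hspb1 and Hspb8 and the cold-inducible gene Cirbp, and 4 lower, among them Hsph1 (log2FC -1.19; median -0.24), and 2 lower without 18 h replicate 1. Xenobiotic and retinoid metabolism had 3 of 20 higher, among them the heme oxygenase gene Hmox1 (log2FC 1.14), and 2 lower (median 0.01). Of 17 growth factor and EGF receptor ligand genes the binding protein gene Igfbp5 rose (log2FC 0.65) and the ligand gene Btc fell (log2FC -0.55; median -0.14). With 1 library left out, the genes that rose in ribosome biogenesis, autophagy, xenobiotic and growth factor lists numbered 0 to 1, 1 to 2, 1 to 3 and 0 to 2, and those that fell 1 to 4, 1 to 2, 1 to 5 and 0 to 3, so that single libraries decided these small counts. Among all genes 10.8% were higher and 10.3% lower.

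Genes of the mitochondrial chromosome were higher as a group in every late library than in any early one. Of 12 tested genes 10 rose and none fell, with a median log2FC of 1.17. The most abundant, mt-Co1, a subunit of cytochrome c oxidase, had 13102 to 38166 (median 25866) normalized CPM early and 39099.8 to 117167 (median 43759) late, without overlap. It rose by 1.14 (adjusted p 0.0441, edgeR's QL test), and the complex III gene mt-Cytb by 1.05 (adjusted p 0.0433). Both calls were lost without any 1 of 9 libraries and held without 0 h replicate 2, 22 h replicate 2 or 22 h replicate 3, and without 22 h replicate 1 the log2FC were 0.81 and 0.76. The complex I gene mt-Nd6, which lies on the other strand of the chromosome, had 76.7 to 155.1 (median 108.7) early and 288 to 897 (median 499) late and rose by 2.20 without overlap (adjusted p 0.000637). It passed whichever single library was left out. Between 4 and 10 of the genes rose when 1 library was left out, fewest without 2 h replicate 1, 5 without 2 h replicate 3 and 6 without 0 h replicate 1, 18 h replicate 3 or 22 h replicate 1. With the mitochondrial genes removed from counts and totals, 721 other genes were called higher and 490 lower.

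Within each state the time points were compared to see whether the early and late groups were uniform. Gast, Gkn3, Hspa5 and Mcm5 had log2FC of 1.66, 0.87, 0.39 and 0.47 for 22 h over 18 h, and Pik3ip1 and Dusp1 of -0.27 and -0.31, and none passed. At 22 h against 18 h edgeR's QL test called 0 of 15974 genes (0%), with 783 at an unadjusted p under 0.05 and a smallest adjusted p of 0.413, and DESeq2 called 14. Gene levels in the early libraries were compared likewise. For 2 h over 0 h the log2FC was -0.21 for Gast, 1.40 for Pdk4 and 1.12 for Fkbp5, and none passed. The QL test called 0 of 15974 genes (0%), with 784 at an unadjusted p under 0.05 and a smallest adjusted p of 0.702, DESeq2 called 2, and without 0 h replicate 2 the QL test called 6. With, by the labels, 3 mice at each time these counts do not show that the time points were alike.

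Liver libraries of the same times were used to ask which stomach differences are of another size in a second organ. Stomach and liver were assigned to a mouse by time and replicate number. The labels do not state that equal numbers are 1 animal, and the matched pairs correlated at only -0.125 to 0.0808. The channel gene Kcne3 fell in stomach without passing in liver, the claudin gene Cldn2 fell more in stomach, and mt-Co1 rose in stomach and fell in liver. Of 12648 genes tested in both organs 129 (1.02%) were called for a different log2FC in edgeR's QL test of the interaction, blocked on animal, 57 with the stomach value above the liver value and 72 below it. The share above was thus 44.2%, and it turned to 52.5% with DESeq2, 56.3% without the animal block and 53.3% without the mouse of 22 h replicate 1. Without this block, which rests on the assumed match, 158 genes were called, 99 of them among the 129. Kcne3 had -2.67 in stomach and 0.24 in liver, a difference of -2.998 (SE 0.40, adjusted p 0.00314). Its liver level was low, with means of 1.30 normalized CPM early and 1.53 late. Cldn2 had -0.82 in liver (adjusted p 0.00511), and the difference was -3.23 (adjusted p 0.00314). For mt-Co1 the liver log2FC was -1.17 (adjusted p 0.0203) and the difference 2.34 (adjusted p 0.0343). Rrm1 had -0.01 in liver and a difference of -1.04 (adjusted p 0.0452), and Adam33 had 0.06 and 1.998 (adjusted p 0.0278). The liver libraries of early and late mice also lay in different lanes, 1 and 2.

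Other genes had no called difference between the organs. Hspa5 had -1.55 in stomach and -1.09 in liver, where it missed the threshold (adjusted p 0.0513, edgeR's QL test), with a difference of -0.54 (SE 0.23, adjusted p 0.252). Pik3ip1 rose in both, by 1.48 and 1.24 (liver adjusted p 0.0379). Its liver level was low, with means of 0.749 normalized CPM early and 1.85 late. Sqle fell by 0.66 in stomach and had -1.61 in liver (adjusted p 0.0266), with a difference of 1.03 (adjusted p 0.179). Scd1 had 0.10 in liver and a difference of -1.39 (adjusted p 0.194). The differences of Pdk4, Angptl4, Cpt1a, Fkbp5, Tsc22d3, Ddit4, Txnip and Fasn ran from -0.28 for Cpt1a to 1.48 for Pdk4, and none passed. The count of 129 became 272 without the mouse of 22 h replicate 1, and lay between 26 (22 h replicate 3) and 66 (0 h replicate 2) without any 1 mouse of 0 h, 2 h replicate 1 or 3, 18 h replicate 1 or 3, or 22 h replicate 3.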

How the data were processed

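The counts per gene are those the authors deposited, made with TopHat2 2.1.1 and HTSeq 0.9.1 on GRCm38.p5 from uniquely mapped reads of stranded mRNA libraries, and read alignment was not repeated. Genes with near-identical copies are therefore undercounted. Of 53686 genes, those with at least 1.1466 CPM (10 counts in a library of median size) in 3 or more libraries were kept. Late and early libraries were compared with edgeR 4.0.16 (TMM normalization, quasi-likelihood F test, robust) in R 4.3.3, with limma 3.58.1 and DESeq2 1.42.0 as alternatives. Benjamini-Hochberg adjustment ran over all tested genes of a comparison. A call asked for an adjusted p below 0.05 together with a log2FC beyond 1 either way, while list members were counted at that adjusted p whatever the fold. Python 3.11.15 with pandas 2.3.3, numpy 2.4.6 and matplotlib 3.10.9 made summaries and plots.

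Named genes were the 10 largest rises and falls among called genes with a mean of at least 5 normalized CPM and no overlap, the most abundant genes, examples from each list and genes compared with liver. Members and lists were chosen with earlier results of these data known. Only part of the genes that this rule named is described one by one. Fos, Isl1, Acta2, Ccnd1, Acaa1b, Nos1, Hmgcs1, Myh11, Krt10, Acadm, Cd36, Arntl and Ghrl were dropped from the detailed accounts after their values were seen, because single libraries decided or stood out in them. This choice can make the genes described look steadier than all that the rule named. It was not applied evenly: Muc5ac, Atp4a, Gif, mt-Co1 and mt-Cytb, whose calls also hung on single libraries, were kept. Some of the dropped genes are still named in passing. All stay in the counts of their lists. Alternatives covered the tool, normalization, filter, fold threshold, pairing, time points and single libraries. The alternatives on GC content, mitochondrial genes, the 2 alike libraries and the 2 libraries that stood apart were chosen after seeing the data. The 8 h and 12 h libraries were used only where all 18 stomach libraries are named.

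Limits: lane and fasting state cannot be told apart, and by the labels 3 mice stood behind each time point. At 18 h there were fewer if the alike replicates come from the same animal. Whole-organ RNA does not separate cell number from RNA per cell. Region and content of the stomach are not labelled, so dissection and neighbouring tissue can differ between libraries. RNA quality values were not used here. All groups were killed at the same hour, so that hours without food and the time of day of the last meal go together. Protein, acid output and hormone release were not measured.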

Additional observations from a re-analysis of the deposited data

Results flagged for a closer look

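Some libraries lay far from the rest of their group in a gene, by a test that picks out about 1 in 20 groups by chance alone. In 0 h replicate 3 the early level was extreme for Bhlha15 (70.0 normalized CPM), Cela1 (346), Clps (74130.4), Hspa5 (1349), Kcne2 (171.4), P4hb (1428) and Sst (507), all high, and for Tef (96.8) and Usp2 (21.4), both low. In 0 h replicate 1 Mt1 (489) and Muc5ac (4772) were high, and the noncoding RNA Gm42418, which overlaps ribosomal RNA sequence, took 3.30% of counts, against 0.331% to 0.461% in the other 5 early libraries and 0.659% to 1.08% in the 6 late ones, all above those 5. In 2 h replicate 1 F5 (19.4), Gkn3 (2069), Igha (87.7), Jchain (15.9) and Reg1 (61.8) were high.

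Among late libraries, 22 h replicate 1 was high in Cela1 (59.1), Gast (33.01), Kcne3 (10.7), Muc5ac (4063), mt-Co1 (117167) and mt-Cytb (56813.2), low in Pdk4 (19.9), and had a mitochondrial share of 24.4%. Gif (2292) and Igha (5.99) were high in 22 h replicate 2, and Jchain (1.89) in 18 h replicate 1.

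The log2FC of stomach minus that of liver was 2.00 for Adam33, 1.78 for Adamtsl2, 1.67 for Arl4d, 2.34 for mt-Co1 and 2.34 for mt-Nd6. It was -2.65 for Cela1, -3.23 for Cldn2, -2.54 for F5, -2.77 for Fabp2, -3.60 for Jchain, -2.998 for Kcne3 and -1.04 for Rrm1. Each of these 12 differences had an adjusted p under 0.05 in edgeR's QL test. Jchain and Kcne3 were low in liver, with early means of 1.38 and 1.30 normalized CPM.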

How the results depend on the processing

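The counts of 732 higher and 492 lower genes were set against other choices. DESeq2 called 893 and 564, limma-voom 654 and 652, DESeq2 size factors 745 and 494, library totals without TMM 850 and 408, no filter 626 and 495, a filter at 50 counts 540 and 363, 1 mean per time point 715 and 543, and all 18 stomach libraries 528 and 496. A block for replicate number, although equal numbers at different times are different mice, gave 683 and 516. Without a fold threshold 1721 and 1641 passed. With 0 h as the only early time 312 and 289 were called, with 2 h 468 and 250. With 18 h as the only late time 969 and 921 were called, and with 22 h 70 and 24. The fit of 18 h alone held the alike replicates 1 and 3 as separate libraries. Leaving out 1 library gave 523 to 869 higher and 321 to 744 lower genes, with 321 without 18 h replicate 3 and 744 without 22 h replicate 2. With lane as a term over all 18 libraries, where only the 8 h libraries separate lane from time, 0 and 0 were called (541 at an unadjusted p under 0.05), the sign was opposite in 10.8% of the 1224 genes called, and among 94 genes followed singly it changed in 5: Dusp1 log2FC -0.14, Ucp3 log2FC -0.79, Des log2FC -0.00878, Igkc log2FC 0.25 and Krtdap log2FC -0.31. Chosen after seeing the data, removal of GC and length trends gave 696 and 441, removal of mitochondrial genes 721 and 490, 18 h replicates 1 and 3 as 1 library 551 and 356, and no 0 h replicate 3 and 22 h replicate 1 815 and 578. For 22 h against 18 h the count of 0 became 3 without a filter and 14 with DESeq2. For 2 h against 0 h it became 2 with DESeq2 and ranged from 0 to 6 without 1 library, with 6 without 0 h replicate 2. The 129 genes of stomach against liver (44.2% with the stomach value above) became 297 with DESeq2 (52.5%), 158 without the animal block (56.3%), and 26 to 272 without 1 mouse. Single calls were lost with DESeq2 (Igha), limma-voom (Igha, Jchain, Krtdap and Reg1), removal of GC and length trends (Gif and Dbp), a replicate block (Atp4a, Sst, mt-Co1 and mt-Cytb), 1 mean per time point (mt-Co1 and mt-Cytb), totals without TMM (Sqle), all 18 stomach libraries (Klhl33, mt-Cytb, Ucp3, Scd1, Zg16, Krtdap and Sqle), the merger of 18 h replicates 1 and 3 (Atp4a, Kcne2, Gif, Bhlha15, Muc5ac, Krtdap, mt-Co1 and mt-Cytb), no 0 h replicate 3 and 22 h replicate 1 (Kcne2, Gif, Bhlha15, Igha, mt-Co1 and mt-Cytb) and no filter (Kcne2, Gif, Bhlha15, Muc5ac, Vsig1, Igha, Igkc and Jchain). With 22 h as the only late time, 64 of the 94 genes followed singly lost their call. With 0 h as the only early time 37 did, and with 2 h 29. Pdk4, which missed the threshold, passed with DESeq2, limma-voom and DESeq2 size factors.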

Other observations

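Some sets of genes were put together after their values were seen, and no test was made of them as sets. Skeletal muscle genes, 9 in number, all passed and were higher in late libraries. Their summed level was 449 to 2831 (median 1904) normalized CPM early and 3654 to 6353 (median 4411) late, without overlap, and lowest in 0 h replicate 3. Of 18 Hox genes, which mark position along the body axis, all had positive log2FC and 12 passed, and the sum was 61.6 to 96.4 (median 80.2) early and 110.9 to 285 (median 192.2) late, without overlap. All 6 antral genes were lower, with a sum of 718 to 2504 (median 1105) early and 70.3 to 199.9 (median 86.1) late, without overlap. They include Gkn3 and Aqp5, which are also neck and gland mucous markers.

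Long noncoding RNAs leaned upward and processed pseudogenes downward. Of 224 lincRNA genes 32 were called higher and 2 lower (median log2FC 0.61), and of 877 processed pseudogenes 14 and 57 (median -0.32), beside 570 and 415 of 13918 protein coding genes. The log2FC had a Spearman correlation of 0.218 with GC content over 15724 genes, which are not independent replicates. The part of GC content in single genes was not tested beyond the refit named with the alternatives.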
